A study of Gallus gallus with 45 samples.

Results

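Chemokine expression in the young chicken jejunum was followed over 8 listed genes, IL8L2, IL8L1, CCL20, CCL4, CCL5, CCL19, CXCL12 and CXCL14. Their probes were found through the RefSeq identifier that the array design gives for a probe, matched to a gene symbol. Of the 8 genes 7 had a probe by this match, and CCL19 had none. The match named 10458 probes of the array, and probes under other identifiers were not searched. Here and below, a gene without a probe is one without such a match, and it may still be on the array. The 7 genes, of 4655 named genes in all, had 14 of the 43603 probes of the array. A filter on dim probes kept 25527 probes, among them 10 of the 14, which stood for 6 genes. Both probes of CXCL12, the dimmer probe of IL8L2 and the dimmest probe of CCL4 were removed by that filter, and their values are given from a fit without it.

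Chemokines are small secreted proteins that draw white blood cells into a tissue along a gradient, and they act through receptors on the surface of the migrating cell. In the intestine of a newly hatched chick, inducible chemokines such as the relatives of interleukin 8 call in heterophils (the avian counterpart of neutrophils) and monocytes after contact with microbes. Others, such as CCL20, CXCL12 and CXCL14, are also made in the resting tissue and are known from mammals for placing lymphocytes, dendritic cells and precursor cells.

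Jejunal tissue came from broiler chickens of 2 lines of different genetic background, named Y and X, which were hatched together and reared in separate pens. Each array held RNA from 1 pool of 10 birds of 1 line and 1 age. There were 7 line Y and 7 line X pools of day 0 (pools 2 to 8), 7 line Y and 8 line X pools of day 4 (pools 9 to 16, of which pool 14 of line Y was not analysed here), and 8 pools of each line of day 16 (pools 17 to 24). The study asked how the intestine of each line develops and where the lines differ. The titles of the line Y pools 2 to 8 name day 4, but their age label gives day 0, and they were taken as day 0. The mean log2 value over 6 T cell genes was higher at each later age in line X. In line Y such a trend itself depends on taking these pools as day 0. This mean had a median of 8.39 in these pools, against 9.87 in the line Y pools of day 4 and 8.90 in the line X pools of day 0. Because each pool mixes birds of 1 line, p-values measure the spread between pools and not between birds. All arrays of a group lay on 1 slide that held no other group, so that group and slide, and likewise line and pen, cannot be told apart in any comparison.

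Values are normalized log2 intensities, so that a difference of 1 is a doubling of signal, and levels of different probes cannot be compared. The scanner software marks on each array whether a spot is well above its background, and the number of pools or arrays so marked is given for each chemokine probe in which it was not all of them. The median raw foreground of an array lay between 78 and 262 units over a local background of 19 to 26, and 61.8 to 81.8 % of the probes were well above background. No chemokine probe was saturated on any array. All 10 epithelial genes with a probe, among them villin (VIL1), CDX2 and the fatty acid-binding protein FABP2, were well above background in all 45 arrays, and their mean log2 value lay between 14.75 and 15.28 in all pools. A probe was called different where limma's adjusted p was under 0.05 and the fold change was over 1.3. A list of genes is described by its counts beside the share of all kept probes called, and by its median difference beside that of all kept probes or, for the lists of other genes, of all kept named genes. No test of a list was made. In whole tissue, fewer cells of a type and less RNA per cell cannot be told apart.

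**Figure D1:**
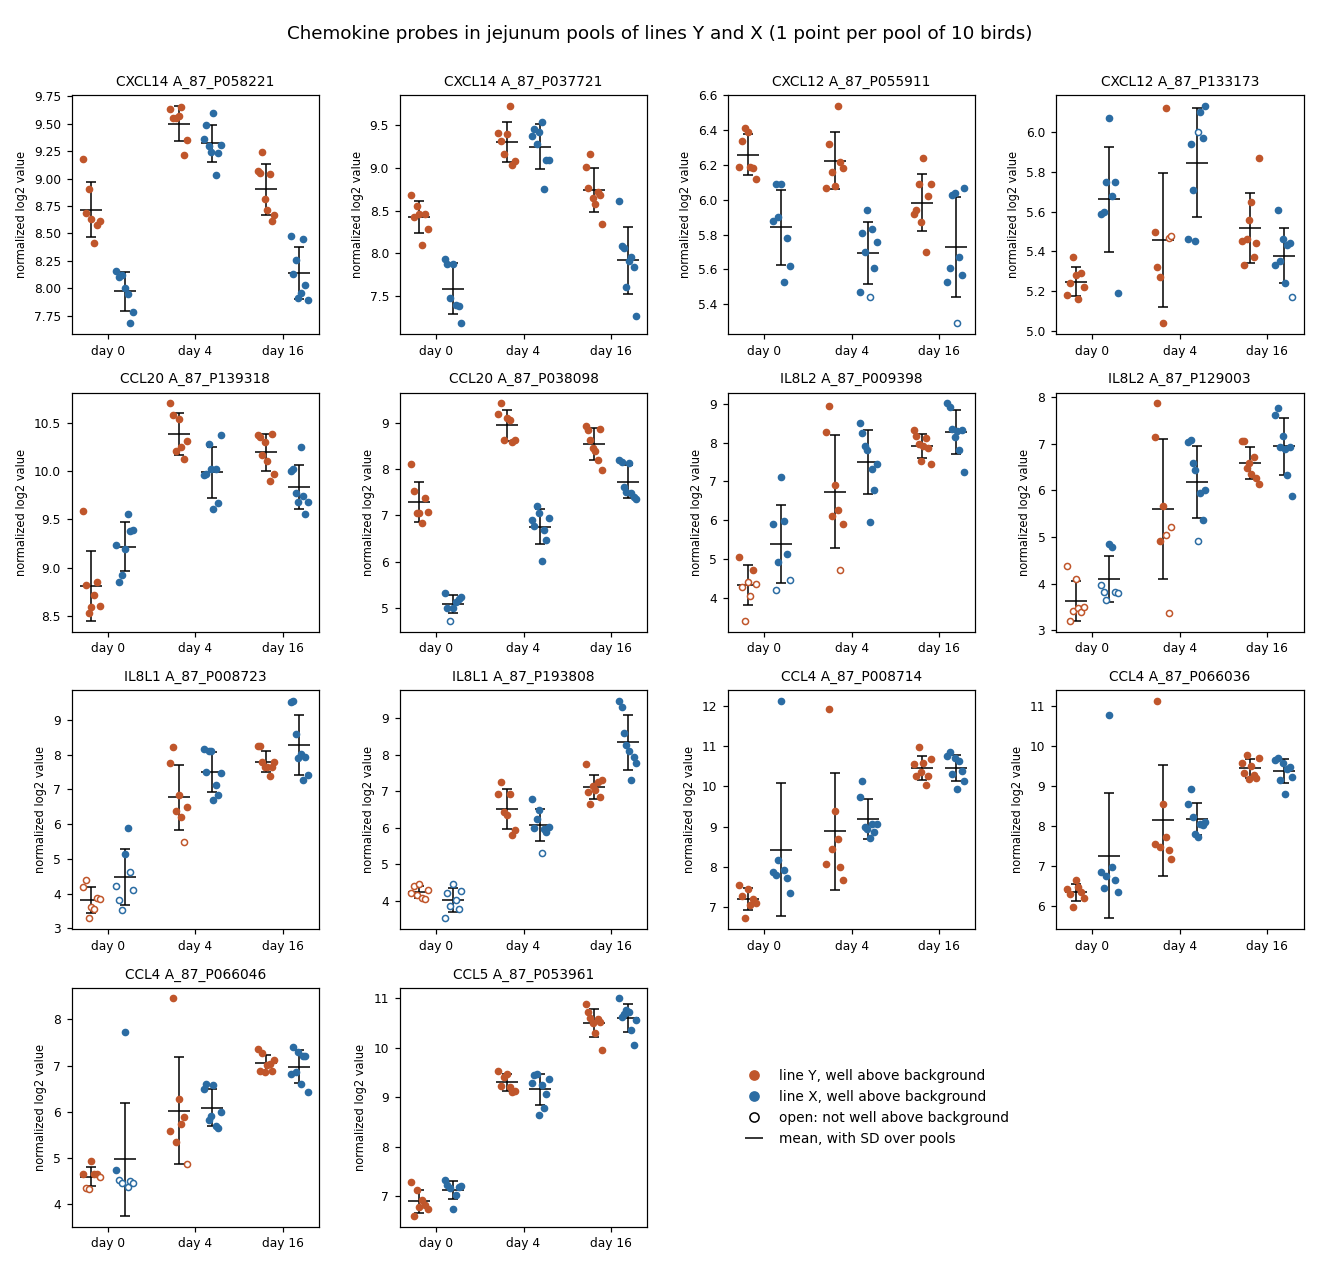
Normalized log2 value of each of the 14 chemokine probes (vertical axis, with its own range in each panel) in every pool, by age (horizontal axis), with line Y left of line X at each age. Points are pools of 10 birds, open where the spot was not well above background, and black marks give the mean and SD. CCL5 and CCL4 climb with age in both lines, CXCL14 peaks on day 4, and for CCL20 probe A_87_P038098 the pools of line Y lie above those of line X on days 0 and 4.

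Most of these chemokine probes rose between hatch and day 4 in both lines. In line Y all 10 kept probes rose from day 0 to day 4 and none fell, where 42.1 % of all kept probes were called in either direction and 18.8 % rose. In line X 8 of the 10 rose and none fell, where 51.9 % of all probes were called and 26.3 % rose. The filter kept a probe that was bright in any 1 group. IL8L2 probe A_87_P009398 and both IL8L1 probes were dim on day 0 and were kept through later ages. CCL20 probe A_87_P038098 was too dim for the filter in line X on day 0 and was kept through other groups. These counts therefore rest partly on the filter. Of the probes it removed, those of IL8L2 and CCL4 were called higher on day 4 in both lines in the fit without it. Those of CXCL12 were not called. The median log2 difference of the 10 probes was 1.75 in line Y and 1.67 in line X, beside -0.01 and 0.01 over all kept probes. Between day 4 and day 16, 8 probes were called in line Y, 6 higher and 2 lower, where 30.2 % of all probes were called, 13.7 % higher and 16.5 % lower. In line X 8 were also called, 6 higher and 2 lower, where 34.8 % were called, 14.1 % higher and 20.6 % lower. The 2 probes that fell in each line were those of CXCL14.

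**Figure D2:**
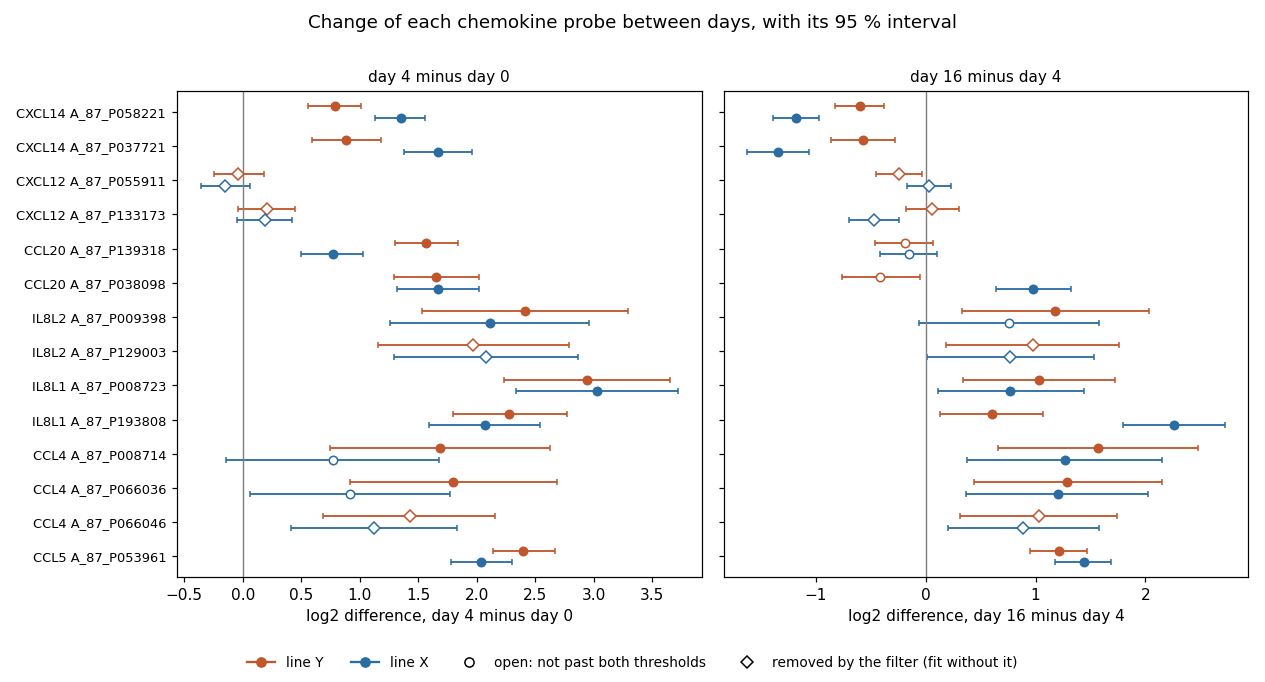
Log2 difference between days (horizontal axis) of each chemokine probe, day 4 minus day 0 on the left and day 16 minus day 4 on the right, in line Y (upper mark of each pair) and line X (lower mark), with 95 % intervals from limma. Filled circles passed both thresholds and open circles did not. Diamonds are probes that the filter removed, drawn open whatever their result. All filled marks on the left lie above 0, and on the right those of CXCL14 lie below 0.

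CCL5, known in mammals as a product of activated T cells and natural killer cells that draws T cells and monocytes, had 1 probe and rose in both lines, first up to day 4 and again up to day 16. Its lowest, median and highest values in line Y pools were 6.60, 6.82 and 7.28 on day 0, 9.11, 9.23 and 9.54 on day 4, and 9.95, 10.56 and 10.88 on day 16. In line X pools they were 6.75, 7.19 and 7.32 on day 0, 8.64, 9.26 and 9.48 on day 4, and 10.06, 10.65 and 11 on day 16. Within each line no pool of one age overlapped with a pool of another, while the lines overlapped at every age. The rise to day 4 was 2.40 ± 0.134 in line Y (log2 difference and SE, limma, adjusted p = 3.45e-19), which is 5.30-fold, and 2.04 ± 0.129 in line X (adjusted p = 1.63e-17), which is 4.11-fold. The later rise was 1.21 ± 0.129 in line Y (limma, adjusted p = 2.8e-10) and 1.44 ± 0.125 in line X (adjusted p = 5.55e-13). No line difference of CCL5 was called, with 95 % intervals for line Y minus line X of -0.50 to 0.04 on day 0, -0.12 to 0.40 on day 4 and -0.34 to 0.16 on day 16.

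The genes whose pattern over the 45 pools was most like that of CCL5, among 3734 other named genes, were GNLY (r = 0.986), DMA (r = 0.986) and CD3D (r = 0.98). GNLY encodes granulysin of cytotoxic lymphocytes, DMA a chain of the MHC class II loading complex and CD3D a part of the T cell receptor complex. These correlations are descriptions over pools that share line, age and slide, and over deviations from the group means r was 0.36, 0.65 and 0.37. CD3D itself rose by 1.85 ± 0.106 in line Y and 1.55 ± 0.103 in line X to day 4, and by 1.37 ± 0.103 in line Y and 1.55 ± 0.0991 in line X from day 4 to day 16. The T cell list also rose with age, by its mean log2 value over 6 kept genes of 8 with a probe. In line Y this mean lay between 8.16 and 8.73 on day 0 and between 9.57 and 10.16 on day 4. On day 16 it lay between 11.64 and 12.04. In line X it lay between 8.59 and 9.10, 9.24 and 9.71, and 11.45 and 11.62 on the same days. To day 4, 6 of the 6 genes rose in line Y and 4 in line X, with median differences of 1.43 and 0.71 beside 0.03 and 0.01 over all kept named genes, where 18.8 % of all kept probes rose in line Y and 26.3 % in line X. From day 4 to day 16 all 6 rose in both lines, with medians of 1.75 in line Y and 1.68 in line X beside -0.05 and -0.08, where 13.7 % and 14.1 % of all probes rose. Unlike CCL5, the list had line calls: 3 genes were lower in line Y on day 0, 3 higher on day 4 and 2 higher on day 16. Of all kept probes 38.1 %, 23.3 % and 33.6 % were called on these days. The line difference changed from day 0 to day 4 for 4 of the 6, all upwards, where 21.7 % of all probes were called. All 6 of these genes were well above background in every pool, and CD4 and CD8A, which the filter removed, in 33 and 37 of the 45. The part of T cell number in the rise of CCL5 was not tested.

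CCL4, a chemokine that in mammals draws monocytes and T cells and whose gene lies beside CCL5, had 3 probes and also rose with age. For probe A_87_P008714 the lowest, median and highest values in line Y were 6.73, 7.20 and 7.56 on day 0, 7.67, 8.45 and 11.93 on day 4, and 10.03, 10.46 and 10.97 on day 16. In line X they were 7.35, 7.87 and 12.12 on day 0, 8.73, 9.03 and 10.14 on day 4, and 9.94, 10.50 and 10.86 on day 16. A single pool set the highest value in line X on day 0 and in line Y on day 4, and both are described below. In line Y the rise was 1.69 ± 0.468 to day 4 (limma, adjusted p = 0.00206) and 1.57 ± 0.453 from day 4 to day 16 (adjusted p = 0.00425). In line X the rise from day 4 to day 16 was 1.27 ± 0.437 (limma, adjusted p = 0.0137), and that to day 4, 0.77 ± 0.453, was not called (adjusted p = 0.13). Without the line X pool 5 of day 0 the step to day 4 in line X was 1.39 (limma, adjusted p = 0.000514) and was called.

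The probe A_87_P066036 of CCL4 gave rises of 1.80 ± 0.438 and 1.29 ± 0.424 in line Y and differences of 0.92 ± 0.424 (limma, adjusted p = 0.0532, not called) and 1.2 ± 0.410 in line X over the same steps. Without the line X pool 5 of day 0 the first of these line X differences was 1.5 (limma, adjusted p = 7.14e-05) and was called. The dimmest probe, A_87_P066046, was well above background in 4 of 7 line Y pools and 2 of 7 line X pools on day 0, in 6 of 7 line Y pools and all 8 line X pools on day 4, and in all 16 pools of day 16. In the fit without the filter its differences were 1.43 and 1.03 in line Y and 1.12 and 0.89 in line X, day 4 minus day 0 and then day 16 minus day 4. All 3 probes therefore pointed the same way at both steps in both lines. On day 16 the lines were level, with line Y minus line X at 0.00 (95 % interval -0.88 to 0.88), 0.07 (-0.76 to 0.89) and 0.07 (-0.62 to 0.76) for the 3 probes. The spread behind all CCL4 tests and intervals was estimated over all 6 groups, with the 2 extreme pools among them. For probe A_87_P008714 the SD over pools was 0.30 in line Y and 0.33 in line X on day 16. It was 1.65 in line X on day 0 and 1.45 in line Y on day 4.

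IL8L2 and IL8L1 are neighbouring paralogs, both chicken relatives of the mammalian interleukin 8 gene, and their products attract heterophils and monocytes. Whether their probes take up signal from each other was not tested. For IL8L2 probe A_87_P009398 the lowest, median and highest values in line Y were 3.41, 4.37 and 5.05 on day 0, 4.73, 6.27 and 8.94 on day 4, and 7.45, 7.93 and 8.33 on day 16. In line X they were 4.21, 5.12 and 7.12 on day 0, 5.96, 7.64 and 8.5 on day 4, and 7.24, 8.31 and 9.01 on day 16. The probe was well above background in 2 of 7 line Y pools and 5 of 7 line X pools on day 0, in 6 of 7 and all 8 on day 4, and in all pools on day 16. The SD over pools on day 16 was 0.30 in line Y and 0.57 in line X, against 1.45 in line Y and 0.82 in line X on day 4.

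From day 0 to day 4 IL8L2 rose by 2.41 ± 0.435 in line Y (limma, adjusted p = 8.33e-06) and by 2.11 ± 0.421 in line X (adjusted p = 2.78e-05). This test rests partly on the filter, which kept the probe through later ages. From day 4 to day 16 IL8L2 rose by 1.18 ± 0.421 in line Y (limma, adjusted p = 0.02), while in line X the difference of 0.76 ± 0.407 was not called (adjusted p = 0.112). The line Y call was lost when pool 15 or pool 16 of day 4 was left out (limma, adjusted p up to 0.0884) and when only line Y on days 4 and 16 was fitted (adjusted p = 0.0598). The other IL8L2 probe, A_87_P129003, was well above background in 0 of 7 line Y pools and 2 of 7 line X pools on day 0, in 4 of 7 line Y pools and 7 of 8 line X pools on day 4, and in all pools on day 16. Its mean in line Y was 5.60 on day 4, with 3 of the 7 pools not well above background, and 3.63 on day 0, and the pools of both days overlapped, so that no fold is given.

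IL8L1 gave little signal above background at hatch and clear signal by day 4. Probe A_87_P008723 was well above background in 0 of 7 line Y pools and 2 of 7 line X pools on day 0, in 6 of 7 and all 8 on day 4 and in all pools on day 16. Its lowest, median and highest values in line Y were 3.29, 3.86 and 4.39 on day 0, 5.49, 6.50 and 8.23 on day 4, and 7.39, 7.71 and 8.25 on day 16. In line X they were 3.54, 4.22 and 5.88 on day 0, 6.69, 7.49 and 8.17 on day 4, and 7.26, 7.98 and 9.54 on day 16. In both lines every pool of day 4 lay above every pool of day 0. The day 4 level was at least 6.11-fold that of day 0 for line Y. This bound sets the measured mean of day 4 against the lowest signal that was well above background on the day 0 arrays, or against the probe's own value where that was higher. No p is given with a bound, because limma tested the measured values and not the bound. In line X, where 2 pools of day 0 gave signal, the rise was 3.03 ± 0.342 (limma, adjusted p = 2.64e-10). The filter kept this probe through later ages, so that the test of its rise from day 0 rests partly on the filter.

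The other IL8L1 probe, A_87_P193808, was well above background in none of the 14 pools of day 0, in all 7 line Y pools and 7 of 8 line X pools of day 4, and in all pools of day 16. By day 4 line Y had risen at least 4.79-fold and line X at least 3.56-fold, by the same kind of bound. The probes parted between day 4 and day 16. In line X the probe A_87_P193808 rose by 2.26 ± 0.226 (limma, adjusted p = 2.66e-11), with every pool of day 16 above every pool of day 4, and in line Y by 0.60 ± 0.234 (adjusted p = 0.0331). Probe A_87_P008723 rose by 1.03 ± 0.342 in line Y (limma, adjusted p = 0.0126) and by 0.77 ± 0.330 in line X (adjusted p = 0.0462). The line Y calls were lost for probe A_87_P008723 without pool 15 of day 4, and for probe A_87_P193808 without pool 11, 12, 15 or 16 of day 4 or pool 17 or 24 of day 16, with limma's adjusted p at up to 0.0992. The line X call of probe A_87_P008723 was lost in 8 of 16 fits that left out 1 pool.

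Among named genes, the patterns most like IL8L2 over the 45 pools were those of SOCS1 (r = 0.927), SOCS3 (r = 0.919) and AVD (r = 0.902), and those most like IL8L1 were SOCS1 (r = 0.956), PGD (r = 0.952) and SOCS3 (r = 0.944). SOCS1 and SOCS3 encode inhibitors of cytokine signalling, AVD encodes avidin, a biotin-binding protein induced by inflammation in the chicken, and PGD is an enzyme of the pentose phosphate pathway. Over deviations from the group means r was 0.77, 0.81 and 0.66 for IL8L2 and 0.60, 0.63 and 0.62 for IL8L1. The leading probes of IL8L2 and IL8L1 correlated with r = 0.81 over these deviations, and with 0.79 when the pair of pools with the highest CCL4 was left out. The list of macrophage and heterophil genes, of which 5 of 8 with a probe were kept, had a mean log2 value of 9.76 to 10.29 in line Y and 10.14 to 10.39 in line X on day 0. On day 4 it was 10.76 to 11.18 in line Y and 10.93 to 11.57 in line X, and on day 16 it was 11.32 to 12.34 in line Y and 11.82 to 12.08 in line X. In each line 4 of the 5 genes rose to day 4 and 3 rose from day 4 to day 16, with median differences of 1.29 and 0.93 in line Y and 1.05 and 0.82 in line X, beside 0.03 and -0.05, and 0.01 and -0.08, over all kept named genes. Of all kept probes 18.8 % and then 13.7 % rose in line Y, and 26.3 % and then 14.1 % in line X. Of the markers removed by the filter, the receptor of the granulocyte growth factor (CSF3R) was well above background in 27 arrays, CYBB in 40 and CD14 in 0. Whether the number of such cells has a part in the rise of IL8L1 and IL8L2 was not tested.

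CXCL14, a chemokine of resting epithelium in mammals, was the only one of the 6 genes tested whose probes both rose to day 4 and both fell afterwards, in both lines. Probe A_87_P058221 had lowest, median and highest values in line Y of 8.41, 8.63 and 9.18 on day 0, 9.21, 9.55 and 9.65 on day 4, and 8.61, 8.93 and 9.24 on day 16. In line X these were 7.68, 8.00 and 8.16 on day 0, 9.03, 9.30 and 9.60 on day 4, and 7.89, 8.08 and 8.48 on day 16. On days 0 and 16 the lowest line Y pool was above the highest line X pool, and on day 4 the lines overlapped. Line Y minus line X was 0.74 ± 0.111 on day 0 (limma, adjusted p = 3.59e-07), which is 1.67-fold, and 0.76 ± 0.103 on day 16 (adjusted p = 6.54e-08), which is 1.70-fold. On day 4 the difference was 0.18 with a 95 % interval of -0.03 to 0.40 and was not called.

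The other CXCL14 probe, A_87_P037721, had line Y minus line X at 0.84 ± 0.147 on day 0 (limma, adjusted p = 7.32e-06), 0.05 ± 0.142 on day 4 (not called) and 0.82 ± 0.138 on day 16 (adjusted p = 3.59e-06). The narrowing of the line difference on day 4 was itself past the thresholds. The line difference on day 4 minus that on day 0 was -0.56 ± 0.154 (limma, adjusted p = 0.00692) and -0.78 ± 0.205 (adjusted p = 0.00481) for the pair of probes. That on day 16 minus that on day 4 was 0.58 ± 0.149 (limma, adjusted p = 0.00164) and 0.77 ± 0.198 (adjusted p = 0.00175). The rise to day 4 was 0.79 and 0.88 in line Y and 1.35 and 1.67 in line X, and the later step was -0.60 and -0.57 in line Y and -1.18 and -1.34 in line X. No CXCL14 call changed when any 1 pool was left out. The genes most like CXCL14 over the pools were YWHAQ (r = 0.871), GTF3A (r = 0.827) and PLK1 (r = 0.826), with 0.13, 0.28 and 0.41 over deviations from the group means.

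The mean log2 value of the 10 epithelial genes lay between 15.14 and 15.22 in line Y and 14.83 and 15.12 in line X on day 0, and between 14.75 and 15.15 in line Y and 15.03 and 15.19 in line X on day 16. The lines did not overlap in this list on day 0, when 2 of its 10 genes were called higher in line Y and none lower, where 38.1 % of all kept probes were called and 4855 of 25527 were higher, and the median difference was 0.00 beside -0.05 over all kept named genes. On day 16 they overlapped and none was called. The smooth muscle list of 6 genes lay between 14.31 and 14.63 in line Y and 13.99 and 14.28 in line X on day 0, and between 13.84 and 14.37 in line Y and 13.20 and 13.90 in line X on day 16. All genes of both lists were well above background in every pool. The lines did not overlap in the smooth muscle list on day 0, when 1 of its 6 genes was called higher in line Y, against the same 4855 of 25527 probes. They overlapped on day 16, when 5 were called higher, where 18.2 % of all probes were. The median differences were 0.35 on day 0 and 0.51 on day 16, beside -0.05 and 0.02 over all kept named genes. Whether tissue composition has a part in the line difference of CXCL14 was not tested.

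**Figure D3:**
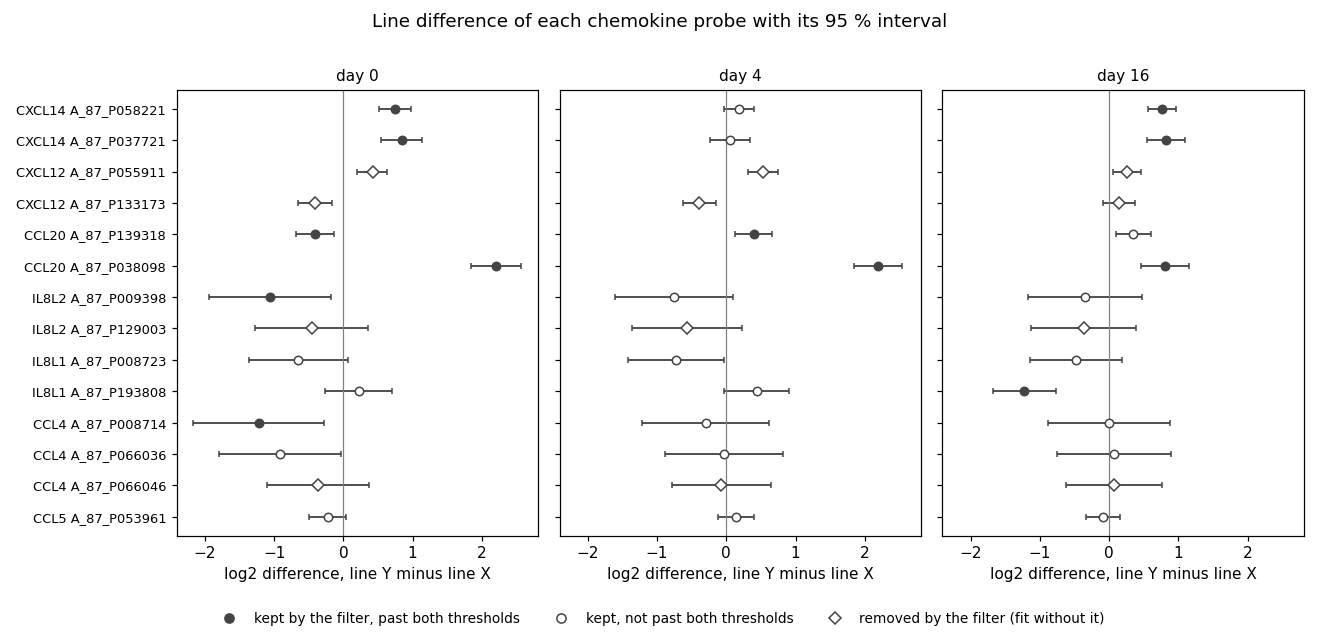
Log2 difference of line Y minus line X (horizontal axis) for each chemokine probe on days 0, 4 and 16, with 95 % intervals from limma. Filled circles passed both thresholds, open circles did not, and diamonds are probes removed by the filter. CXCL14 lies above 0 on days 0 and 16, and the probes of CCL20, and those of CXCL12, stand apart from each other on day 0.

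Between the lines, 6 of the 10 kept chemokine probes were called on day 0, 3 higher and 3 lower in line Y, where 38.1 % of all kept probes were called. On day 4, 2 were called, both of CCL20 and both higher in line Y, where 23.3 % of all probes were called. On day 16, 4 were called, 3 higher and 1 lower, where 33.6 % of all probes were called. At most 6 of 10 members were thus called on any day, on days when 23.3 to 38.1 % of all probes were called, and the 10 probes had a median difference of -0.32 on day 0, 0.10 on day 4 and 0.04 on day 16, beside -0.03, -0.05 and 0.01 over all kept probes. On day 4 the pool numbers paired the pools of the lines by the rule used here, and with the pool number as a replicate block 4 probes were called: the added ones were IL8L2 probe A_87_P009398 at -0.79 (limma, adjusted p = 0.0442) and IL8L1 probe A_87_P008723 at -0.79 (adjusted p = 0.03).

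CCL20, which in mammals draws CCR6-bearing lymphocytes and dendritic cells to the lymphoid tissue of the gut, gave the largest line difference of the 14 probes, but in 1 of its 2 probes. Probe A_87_P038098 had lowest, median and highest values in line Y of 6.83, 7.08 and 8.10 on day 0, 8.58, 9.06 and 9.42 on day 4, and 7.98, 8.54 and 8.94 on day 16. In line X they were 4.72, 5.13 and 5.32 on day 0, 6.02, 6.83 and 7.20 on day 4, and 7.36, 7.56 and 8.20 on day 16. Every line Y pool lay above every line X pool on days 0 and 4, and 1 line X pool on day 0 was not well above background. The line X pools of day 0 did not all pass the filter's limit, so the probe was kept through other groups. Comparisons with line X on day 0 therefore rest partly on the filter. The probe was 2.20 ± 0.181 higher in line Y on day 0 (limma, adjusted p = 7.61e-14), which is 4.61-fold, and 2.19 ± 0.175 higher on day 4 (adjusted p = 6.97e-14), which is 4.56-fold. On day 16 it was 0.81 ± 0.169 higher (limma, adjusted p = 0.000112), and the drop of the line difference by 1.38 ± 0.243 from day 4 to day 16 was past the thresholds (adjusted p = 1.4e-05).

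Probe A_87_P139318 of CCL20 showed no such difference. Its lowest, median and highest values in line Y were 8.53, 8.72 and 9.59 on day 0, 10.12, 10.31 and 10.7 on day 4, and 9.90, 10.23 and 10.38 on day 16. In line X they were 8.85, 9.24 and 9.56 on day 0, 9.61, 9.99 and 10.37 on day 4, and 9.56, 9.75 and 10.25 on day 16. The lines overlapped at every age. Line Y minus line X was -0.41 ± 0.135 on day 0 (limma, adjusted p = 0.0104), 0.40 ± 0.131 on day 4 (adjusted p = 0.014) and 0.35 ± 0.126 on day 16 (adjusted p = 0.0172, but 1.28-fold and so not called). The first 2 of these lay close to the fold threshold, and each lost its call in 5 of the fits that left out 1 pool. The day 0 call was lost without line Y pool 4, 5 or 8 or line X pool 6 or 8, and the day 4 call without line Y pool 9, 10 or 12 or line X pool 13 or 15.

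Both CCL20 probes rose from day 0 to day 4. The rise was 1.57 ± 0.135 for probe A_87_P139318 and 1.65 ± 0.181 for probe A_87_P038098 in line Y, and 0.77 ± 0.131 and 1.67 ± 0.175 in line X. The line X rise of probe A_87_P038098 rests partly on the filter, which kept the probe through other groups. From day 4 to day 16 only the rise of probe A_87_P038098 in line X was called, at 0.98 ± 0.169 (limma, adjusted p = 5.04e-06). In line Y that probe had a difference of -0.41 ± 0.175 (limma, adjusted p = 0.0543). The change of the line difference from day 0 to day 4 was 0.81 ± 0.188 for probe A_87_P139318 (limma, adjusted p = 0.00193) and -0.02 ± 0.251 for probe A_87_P038098 (not called). Within groups the probes moved together, with r = 0.84 over the deviations of the 45 pools from their group means. The size of a line difference of CCL20 thus depended on the probe, and on day 0 its direction too. Why the probes differ was not tested. Named genes most like probe A_87_P139318 over the pools were MX1 (r = 0.88), INSIG1 (r = 0.87) and MSMO1 (r = 0.867), with 0.33, 0.19 and 0.34 over deviations from the group means.

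The line difference itself changed between day 0 and day 4 for 3 of the 10 kept chemokine probes, 1 of CCL20 upwards and both of CXCL14 downwards, where 21.7 % of all probes were called. Between day 4 and day 16 it changed for 4, both of CXCL14 upwards and 1 each of CCL20 and IL8L1 downwards, where 35.0 % of all probes were called, 20.1 % upwards and 14.8 % downwards. The median of these changes over the 10 probes was 0.26 and 0.18, beside -0.03 and 0.05 over all kept probes.

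IL8L1 differed between the lines on day 16 in 1 probe. Probe A_87_P193808 had lowest, median and highest values of 6.65, 7.08 and 7.73 in line Y and 7.30, 8.17 and 9.47 in line X. The highest line X values were in pools 17 and 18, and the lines overlapped. Line Y was lower by 1.23 ± 0.226 (limma, adjusted p = 1.76e-05), and line X was 2.34-fold above line Y. Leaving out any 1 pool moved the difference between -1.37 and -1.06 and kept the call. The change of the line difference from day 4, where it was 0.44 ± 0.234 (not called), was -1.66 ± 0.325 (limma, adjusted p = 7e-05). For probe A_87_P008723 line Y minus line X was -0.73 ± 0.342 on day 4 and -0.48 ± 0.330 on day 16, neither of them called. On day 0, when 0 of 7 line Y pools and 2 of 7 line X pools were well above background, its means were 3.83 in line Y and 4.47 in line X, which was not called either.

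IL8L2 was lower in line Y on day 0 by 1.06 ± 0.435 (limma, adjusted p = 0.0372), with line X 2.08-fold above line Y, and with 2 of 7 line Y pools and 5 of 7 line X pools well above background. This call was lost in 6 of 14 fits that left out 1 pool, without line Y pool 3, 4 or 6 or line X pool 2, 5 or 6, with limma's adjusted p at up to 0.134. On days 4 and 16 the differences were -0.76 ± 0.421 and -0.35 ± 0.407 and were not called. The dimmer probe gave -0.57 on day 4 and -0.37 on day 16, neither past the threshold in the fit without the filter, and on day 0 its means were 3.63 in line Y, with no pool well above background, and 4.10 in line X.

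CCL4 probe A_87_P008714 was lower in line Y on day 0 by 1.22 ± 0.468 (limma, adjusted p = 0.0253), and 1 pool of line X decided this value. The line Y pools lay between 6.73 and 7.56, against 7.35 to 8.18 in the other line X pools, so that the lines overlapped, and 12.12 in the line X pool 5. Without that pool the difference was -0.61 and was not called (limma, adjusted p = 0.15). When the line Y pool 10 of day 4 was also left out, it was -0.61 and was called (adjusted p = 0.0158). Probe A_87_P066036 was not called on day 0 (-0.91 ± 0.438, limma, adjusted p = 0.0744), and it was called with the pool number as a block (adjusted p = 0.0414), although pool numbers did not pair the pools on day 0 by the rule used here. Without the line X pool 5 its difference was -0.33 and was not called (limma, adjusted p = 0.415). Without both pools CCL4 was lower in line Y on day 4, by 0.81 for probe A_87_P008714 (limma, adjusted p = 0.00172) and by 0.53 for probe A_87_P066036 (adjusted p = 0.0122), against -0.30 and -0.03 with them. Leaving out both was a choice made after seeing the data. No fit that left out only 1 pool called either probe on day 4. In those fits the differences reached -0.81 and -0.53, and limma's adjusted p was at least 0.102 and 0.26. The day 4 calls thus needed the day 0 pool to be left out as well.

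CXCL12, which in mammals holds CXCR4-bearing lymphocytes and precursor cells in tissues and also binds the scavenging receptor CXCR7, had 2 dim probes of opposite sign. Probe A_87_P055911 was well above background in 43 arrays, all but 1 line X pool each of days 4 and 16, but did not pass the dark corner limit. Probe A_87_P133173 did not pass it either and was well above background in 41 arrays, with 5 of 7 line Y and 7 of 8 line X pools on day 4 and all 8 line Y and 7 of 8 line X pools on day 16. Probe A_87_P055911 had lowest, median and highest values of 6.12, 6.19 and 6.41 in line Y and 5.53, 5.88 and 6.09 in line X on day 0, and of 6.07, 6.18 and 6.54 in line Y and 5.44, 5.73 and 5.94 in line X on day 4. The lines did not overlap on either day. In the fit without the filter line Y minus line X was 0.42 ± 0.107 on day 0 (limma, adjusted p = 0.00154), 0.53 ± 0.103 on day 4 (adjusted p = 0.000101) and 0.26 ± 0.0997 on day 16, which was 1.2-fold. Probe A_87_P133173 gave -0.41 ± 0.121 on day 0 (limma, adjusted p = 0.00546), -0.39 ± 0.117 on day 4 (adjusted p = 0.0102) and 0.14 ± 0.113 on day 16. A line difference of CXCL12 thus has no direction that both probes share on days 0 and 4. With age the probes moved by between -0.24 and 0.21 on the log2 scale in line Y, and in line X only probe A_87_P133173 had a step past the thresholds, -0.47 ± 0.113 from day 4 to day 16.

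In 2 pools CCL4 stood far above the rest of the group, and IL8L2 was highest in the same pools by a smaller margin. In the line X pool 5 of day 0 the CCL4 probes had 12.12, 10.76 and 7.73, against 8.18, 6.98 and 4.75 in the next highest pools of that group. In the line Y pool 10 of day 4 they had 11.93, 11.12 and 8.45, against 9.40, 8.54 and 6.28 in the next highest. The raw foreground of probe A_87_P008714 was 4316.5 units in the first of these pools and between 186 and 268 in the other line X pools of day 0. IL8L2 (probe A_87_P009398) was also highest in both pools, at 7.12 and 8.94, against 5.98 and 8.28 in the next highest pools. These values were 2.10 and 2.75 above the median of the other pools. IL8L1 (probe A_87_P008723) lay 0.96 and 1.80 above that median, while CCL5 lay at -0.45 and -0.09, CXCL14 at -0.02 and -0.01, and CCL20 (probe A_87_P139318) at -0.12 and 0.30 from it.

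**Figure D4:**
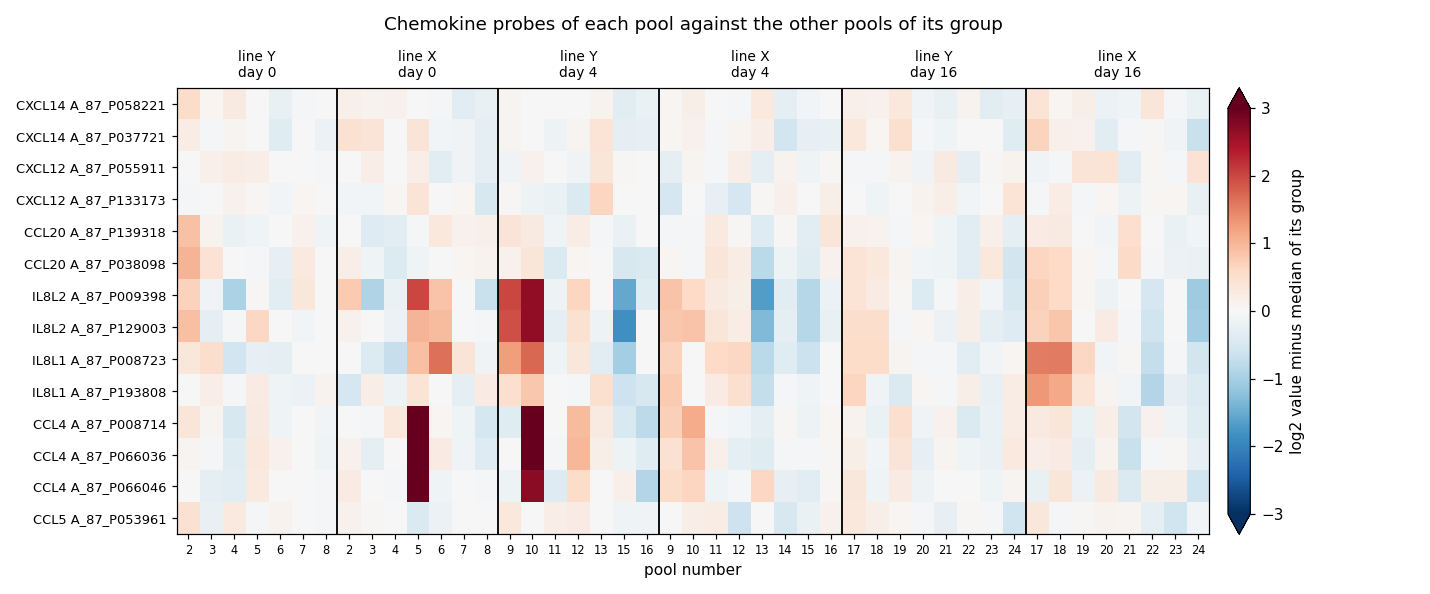
Log2 value of each chemokine probe in each pool minus the median of its group (colour, limited at 3 in either direction), with pools on the horizontal axis and line Y left of line X at each age. The darkest red cells are CCL4 in the line X pool 5 of day 0 and the line Y pool 10 of day 4, at 12.12 and 11.93 for probe A_87_P008714. For both IL8L2 probes, pools 9 and 10 on day 4 and pools 17 and 18 on day 16 are the highest in both lines.

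Other genes of acute inflammation were high in the same pools. Of 4655 named genes, 36 lay over 1 log2 unit above the median of the other pools in the line X pool and 50 in the line Y pool, and 12 did so in both. Besides CCL4 and IL8L2 these included CSF3, IL6, IL13RA2, PTX3, AVD, IL22, ACOD1, EXFABP and SERPINB10B, and they are named because of their values. The granulocyte growth factor CSF3 was 2.44 and 3.26 above the median, the cytokine IL6 1.90 and 2.16, and the pentraxin PTX3 1.70 and 3.51. IL6, which the filter removed, was well above background in only 1 pool of each of these 2 groups, the pool named here. The medians of the other pools are therefore background for IL6. EXFABP, an iron-siderophore-binding protein of the chicken, was 1.18 and 5.54 above the median. IL22, a cytokine that acts on the epithelium, was 1.42 and 1.97 above the median. Among the other line X pools of day 0 the median was 3.89 for IL22, near the 3.93 of IL6 that is background. The size of the IL22 difference in that group is therefore uncertain. Over all 45 pools IL22 was among the 3 genes most like CCL4 (r = 0.835), beside TLR1B (r = 0.85) and SLC7A5 (r = 0.844). Over deviations from the group means r was 0.56 for IL22, 0.64 for TLR1B and 0.51 for SLC7A5. Both pools with the highest CCL4 are part of these correlations. By the same count of genes over 1 log2 unit above the median, the other line X pools of day 0 had between 10 and 41 and the other line Y pools of day 4 between 27 and 48.

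Pools of the same number shared a slide position, and some stood out together. On day 0, 7 of the 14 chemokine probes had their highest pool under the same number in both lines, on day 4, 6 did, and on day 16, 5 did. For the lowest pool these counts were 1, 1 and 5. The counts hold several probes of the same gene, which move together, and no such count over all probes of the array was made. On day 4 the IL8L2 probe A_87_P009398 had its 2 highest values in pools 10 and 9 in line Y, at 8.94 and 8.28, and in pools 9 and 10 in line X, at 8.5 and 8.24. On day 16 pool 17 was highest in both lines for IL8L2 (probe A_87_P009398), IL8L1 (probe A_87_P193808), CCL20 (probe A_87_P038098) and CCL5. On day 4 pool 10 was highest in both lines for all 3 probes of CCL4, with 11.93 in line Y and 10.14 in line X for probe A_87_P008714. The number of a pool and its slide position cannot be told apart.

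Few other chemokines and receptors could be followed. Of 19 other chemokines listed, 3 had a probe by the RefSeq match and 2 were kept, CCL1 and XCL1. Both rose at both steps in both lines. Of all kept probes 18.8 % rose to day 4 and 13.7 % afterwards in line Y, and 26.3 % and 14.1 % in line X. XCL1, known in mammals as a product of cytotoxic lymphocytes, had lowest, median and highest values of 7.94, 8.41 and 8.87 in line Y and 7.18, 7.46 and 8.72 in line X on day 0, and of 10.28, 10.59 and 11.1 in line Y and 9.74, 9.88 and 10.04 in line X on day 4. All line Y pools were above all line X pools on day 4. XCL1 was 0.81 ± 0.147 higher in line Y on day 0 (limma, adjusted p = 1.18e-05) and 0.74 ± 0.142 higher on day 4 (adjusted p = 4.77e-05), and on day 16 the difference of 0.26 ± 0.137 was not called. CCL1, an attractant of T cells in mammals, was 0.56 ± 0.104 higher in line Y on day 0 (limma, adjusted p = 1.71e-05), and its differences of 0.33 and 0.15 on days 4 and 16 were not called. CX3CL1 was removed by the filter, although it was well above background in every array, and in the fit without the filter line Y minus line X was -0.79 ± 0.156 on day 16 (limma, adjusted p = 8.51e-05). CCL1 rose by 1.57 and 1.99 in line Y and by 1.81 and 2.16 in line X over the 2 steps.

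Of 15 chemokine receptors listed, 6 had a probe by the RefSeq match and only CCR8, in mammals a receptor of CCL1 on T cells, was kept. Its lowest, median and highest values were 4.85, 5.17 and 5.47 in line Y and 5.25, 5.88 and 5.91 in line X on day 0, and 6.52, 7.42 and 7.76 in line Y and 7.27, 8.30 and 9.22 in line X on day 4. The lines overlapped on both days. CCR8 was lower in line Y, by 0.56 ± 0.194 on day 0 (limma, adjusted p = 0.0135) and by 1.05 ± 0.188 on day 4 (adjusted p = 1.84e-05). On day 16 its difference was -0.04 ± 0.182. XCR1, the receptor of XCL1, was well above background in 1 of 7 line Y pools and 0 of 7 line X pools on day 0 and in all 16 pools of day 16. CXCR4, the receptor of CXCL12, and CCR2 were each well above background in 24 of the 45 arrays, and CCR7 and CCR9 in none. CXCR7, the scavenging receptor, was well above background in every pool. It fell up to day 4 by 0.41 ± 0.138 in line Y and by 0.42 ± 0.134 in line X, and then by 0.97 ± 0.129 in line X, while the later step in line Y, -0.21 ± 0.134, was not called. On day 16 it was 0.64 ± 0.129 higher in line Y (limma, adjusted p = 6.71e-05).

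Of 14 genes that in mammals are parts or targets of the NF-kB pathway, a driver of several chemokine genes, 9 had a probe and 7 were kept. On day 0, where 38.1 % of all kept probes were called, 2 of the 7 were called lower in line Y, NFKB2 by 0.87 ± 0.112 (limma, adjusted p = 1.32e-08) and NFKBIZ by 0.39 ± 0.149 (adjusted p = 0.0272). On day 4 none was called, and on day 16, where 33.6 % of all probes were called, 3 were higher in line Y: NFKBIZ by 0.51 ± 0.139, NFKBIA by 0.47 ± 0.135 and PTGS2 by 0.46 ± 0.150. NFKBIA encodes the inhibitor that holds NF-kB in the cytoplasm, NFKBIZ a nuclear co-factor of it, and PTGS2 the inducible cyclooxygenase. The share of the 7 genes called was thus near that of all probes on days 0 and 16. Their median difference was -0.28 on day 0, -0.15 on day 4 and 0.24 on day 16, beside -0.05, -0.03 and 0.02 over all kept named genes. On day 16, IL8L1 probe A_87_P193808 was lower in line Y and these 3 genes were higher there. The rest of the 7 genes were not called on that day. Neither was IL8L1 probe A_87_P008723, at -0.48. A link of these genes to IL8L1 was not tested. With age 5 of the 7 NF-kB genes rose and 2 fell up to day 4 in line Y, against 3 and 1 in line X, where 42.1 % of all probes were called in line Y and 51.9 % in line X. From day 4 to day 16 there were 5 higher and none lower in line Y and 2 higher and 1 lower in line X, where 30.2 % and 34.8 % of all probes were called. The median differences were 0.50 and 0.56 in line Y and 0.33 and 0.13 in line X over these steps, beside 0.03 and -0.05, and 0.01 and -0.08, over all kept named genes. IRF1, a transcription factor induced by interferon, rose by 1.60 ± 0.0935 in line Y and 1.51 ± 0.0906 in line X to day 4, while NOS2, the inducible nitric oxide synthase, fell by 1.1 ± 0.194 in line Y and by 1.18 ± 0.188 in line X over the first of these steps.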

How the data were processed

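Whole jejunum RNA of 45 pools was labelled with Cy3 and hybridised to 1-colour Agilent chicken arrays. The deposited intensity values are the median foreground and background of each spot, as read by Feature Extraction 10.7.3.1, with no normalization, and the scanner's processed intensity and its 0 or 1 flags were deposited beside them. The deposited log2 values were made by the authors in R 3.0.2 with limma, by normexp background correction, quantile normalization and averaging of repeated spots. The same steps with an offset of 1 gave these log2 values to within 5e-09, and they were used here. A probe was kept if, in every array of at least 1 group, it exceeded 1.1 times the log2 value of the highest dark corner spot, a control spot without target (4.31 to 9.73 over arrays). Probes were named through RefSeq identifiers, which gave 10458 probes of 4655 genes a symbol.

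Differences were fitted in R 4.3.3 with limma 3.58.1 (lmFit and eBayes, 6 groups, 45 pools), with Benjamini-Hochberg adjustment over all 25527 kept probes. A call needed an adjusted p under 0.05 and a fold change over 1.3. The fit was tested first on simulated data, for the line difference on day 0 only, with brighter probes and independent noise. That test did not cover dim probes or single extreme pools. Probes removed by the filter were fitted among all 43603 probes. The number of arrays limits the precision. The text names every probe of the listed genes, the other chemokines, receptors and marker genes of the lists, and the 3 named genes most like each leading probe, which is the probe of a gene with the highest mean. Members and lists were chosen with earlier results of these data known. Pool numbers were checked for pairing by correlating the deviations of like-numbered pools from their group means over all kept probes. On day 4 all 7 pairs were over 0.1 (0.102 to 0.261), on day 0 4 of 7 and on day 16 3 of 8 were, so that the pool number was taken to pair the lines on day 4 only. Alternatives were an offset of 50, the processed intensity scaled to its 75th percentile, other filters, no fold threshold, fits of only the groups compared, the pool number as a replicate block, and leaving out each pool. Figures were drawn with matplotlib 3.10.9.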

Additional observations from a re-analysis of the deposited data

Results flagged for a closer look

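In 8 of the 84 groups of pools that were examined, 1 pool lay farther from the others than Dixon's limit, which chance passes in about 1 in 20 groups. Probes of the same gene share arrays and move together, so these groups are not independent. The count therefore cannot show an excess over chance. For CCL4 the line X pool 5 of day 0 had 12.12, 10.76 and 7.73, and the line Y pool 10 of day 4 had 11.93, 11.12 and 8.45, with probes A_87_P008714, A_87_P066036 and A_87_P066046. The line Y pool 2 of day 0 had 9.59 for CCL20 probe A_87_P139318, and the line Y pool 13 of day 4 had 6.12 for CXCL12 probe A_87_P133173.

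The difference of line Y minus line X changed with age, by limma's test of the change itself. From day 0 to day 4 it changed by -0.78 for CXCL14 probe A_87_P037721, by -0.56 for CXCL14 probe A_87_P058221 and by 0.81 for CCL20 probe A_87_P139318. From day 4 to day 16 it changed by 0.77 and 0.58 for the same CXCL14 probes, by -1.38 for CCL20 probe A_87_P038098 and by -1.66 for IL8L1 probe A_87_P193808.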

How the results depend on the processing

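No called value turned its sign under any setting run. Between the lines on day 4, 2 chemokine probes were called, against 4 of 14 without the filter on dim probes, 4 of 14 when a probe had to be well above background in every array of a group, 4 with the pool number as a replicate block and 5 without both pools of highest CCL4, a setting chosen after seeing the data. The block also called CCL4 probe A_87_P066036 on day 0 and changed no other call of the 50 tested. Leaving out 1 pool gave 1 to 3 calls between the lines on day 4, with 3 without line Y pool 10 and 1 without, for example, line X pool 13. It gave 4 to 7 on day 0, 4 to 5 on day 16, and 6 to 9 in line Y and 7 to 8 in line X from day 4 to day 16. Up to day 4 it gave 10 in line Y and 8 to 10 in line X. It gave 3 and 4 for the changes of the line difference, as with all pools. Of 90 single results, 87 kept their call with an offset of 50 and 82 with the 75th percentile. There IL8L2 on day 0 lost its call (offset of 50, -0.45, limma, adjusted p = 0.188), and line differences of IL8L1 became called with the percentile, -1.45 for probe A_87_P008723 on day 0 and 0.81 and 0.65 for probe A_87_P193808 on days 0 and 4. The line difference of CCL20 probe A_87_P139318 on day 0 lost its call under both settings, at -0.37 in each, short of the fold threshold. With only the groups compared in the fit, CCL4 probe A_87_P008714 lost its day 0 call (limma, adjusted p = 0.0741). The mean foreground was not run, since that column was not used here, and 2 stricter filters kept 0 of the 14 probes. Dim signal limits IL8L1, IL8L2 and the third CCL4 probe on day 0.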

Other observations

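Over deviations of the 45 pools from their group means, both CXCL14 probes correlated with r = 0.78 and both CXCL12 probes with r = 0.32. CCL4 and CCL5, which lie side by side, correlated with r = -0.14, and with r = 0.18 without both pools of highest CCL4. CCL20 probe A_87_P038098 and IL8L1 probe A_87_P008723 correlated with r = 0.66, and with r = 0.65 without those pools. These values are descriptions over pools that share slides.

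The B cell list, of which 6 of 8 genes with a probe were kept, had a median of its mean log2 value of 6.01 in line Y and 6.34 in line X on day 0, of 7 in line Y and 7.36 in line X on day 4, and of 10.14 in line Y and 10.31 in line X on day 16. Its kept genes included PIGR and SH2D6, both well above background in all 45 arrays. SH2D6 was not listed itself and was reached through a synonym. The joining chain of secreted antibodies (JCHAIN) was well above background in none of the 29 pools of days 0 and 4 and in all 16 of day 16. The list of red cell genes had medians of 12.22 in line Y and 11.66 in line X on day 0, 14.67 in both on day 4, and 13.08 in line Y and 12.70 in line X on day 16, and 5 of its 6 genes with a probe were kept. Among those kept was ALAS1, also not listed itself and reached through a synonym. The stroma list of 6 genes had medians of 12.69 in line Y and 12.83 in line X on day 0, 12.84 and 12.78 on day 4, and 12.12 and 12.19 on day 16.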
